A study of Homo sapiens with 8 samples.

Results

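Progesterone receptor (PR) sites were examined in windows around 3 genes on the distal long arm of human chromosome 3: BCL6, HES1 and TIPARP. The windows, given on hg19 as each gene with its flanks, ran from 187389000 to 187600000 for BCL6 (211 kb), from 193804000 to 193907000 for HES1 (103 kb) and from 156341000 to 156475000 for TIPARP (134 kb). They were chosen by the PR sites, chromatin regions and nuclease reads of these same files, so the values given for them are descriptions and carry no test. Where sites of the 5 PR lists that overlap by at least 1 bp were merged, the windows held 45 of the 43784 merged sites of the genome: 21 at BCL6, 17 at HES1 and 7 at TIPARP. Chromosome 3 beyond 150 Mb, called distal 3q here, held 2001 merged sites.

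The sites came from chromatin immunoprecipitation with sequencing (ChIP-seq) in T47D-MTVL, a human breast cancer line of luminal type with an integrated progestin-responsive reporter driven by the promoter of mouse mammary tumour virus. PR was precipitated from unstimulated cells (0 min) and from cells given 10 nM of R5020, a synthetic progestin, for 5, 30, 60 or 360 min. Histone H3 monomethylated at lysine 4 (H3K4me1, common at enhancers), H3 trimethylated at lysine 4 (H3K4me3, common at active promoters) and RNA polymerase II were precipitated from unstimulated cells without hormone. A table of the 60 min PR sites adds normalized reads from digestion with micrococcal nuclease (MNase, which leaves DNA wrapped in nucleosomes) without hormone and after 60 min of R5020. All 8 ChIP groups shared 48 h in charcoal-treated serum, 1 day without serum and 10 min of fixation in 1% formaldehyde. All cells were of this single line, and no separate cultures are named. Each group was 1 library, so the differences given here have no replicate check and no p-values. The lists hold positions only, with no height, score or depth, so a site missing from a list is not shown to be unbound.

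PR is a nuclear receptor that binds DNA once it has bound progestin, at inverted repeats of the hexamer TGTTCT and at single copies of it. The 3 genes encode regulators of transcription and signalling. BCL6 is a zinc finger repressor with a BTB domain that recruits corepressors, is best known from germinal centre B cells, and can bind sites near its own promoter. HES1 is a basic helix-loop-helix repressor and a classic target of Notch signalling through RBPJ, and it binds N boxes, including copies in its own promoter. TIPARP is a mono-ADP-ribosyltransferase induced by the aryl hydrocarbon receptor (AHR), whose activity it limits in return. In the RefSeq gene order of GRCh38.p14, BCL6 lies between RTP2 and LPP, TIPARP between SSR3 and LEKR1, and HES1 between the uncharacterized LOC102724877 and CPN2.

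The promoters of these genes are shown because each window held regions of H3K4me3 and RNA polymerase II, the marks of active starts. Each sequence is from RefSeq on GRCh38.p14, runs 5′ to 3′ on the strand of the gene from 250 bases before to 50 after a start, and is not placed against the hg19 sites. Capitals mark matches, searched on both strands, to TGTTCT (PR), TTCCTAGAA (BCL6), GTGGGAA (RBPJ), CACNAG (N box of HES1) or GCGTG (AHR).
BCL6 start 1, chr3:187745419-187745718, minus strand: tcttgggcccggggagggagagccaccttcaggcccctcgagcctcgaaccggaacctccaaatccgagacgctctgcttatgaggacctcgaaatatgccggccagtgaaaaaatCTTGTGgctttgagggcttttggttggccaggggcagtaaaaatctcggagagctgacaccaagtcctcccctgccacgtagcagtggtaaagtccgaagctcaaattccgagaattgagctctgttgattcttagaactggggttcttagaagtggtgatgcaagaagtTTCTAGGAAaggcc
BCL6 start 2, chr3:187736452-187736751, minus strand: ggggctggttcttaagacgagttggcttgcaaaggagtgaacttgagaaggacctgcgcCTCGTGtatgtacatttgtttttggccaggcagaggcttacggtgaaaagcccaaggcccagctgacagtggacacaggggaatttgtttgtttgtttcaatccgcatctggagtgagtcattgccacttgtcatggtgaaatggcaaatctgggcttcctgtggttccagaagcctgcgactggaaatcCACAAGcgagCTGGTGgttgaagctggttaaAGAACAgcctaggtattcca
HES1, chr3:194135898-194136197, plus strand: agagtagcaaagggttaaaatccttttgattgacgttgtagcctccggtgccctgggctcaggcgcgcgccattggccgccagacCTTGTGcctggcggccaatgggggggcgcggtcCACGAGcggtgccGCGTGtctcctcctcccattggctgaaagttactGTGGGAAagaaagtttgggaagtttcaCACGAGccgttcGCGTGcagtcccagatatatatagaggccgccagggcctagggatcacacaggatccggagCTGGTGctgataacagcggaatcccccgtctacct
TIPARP start 1, chr3:156674340-156674639, plus strand: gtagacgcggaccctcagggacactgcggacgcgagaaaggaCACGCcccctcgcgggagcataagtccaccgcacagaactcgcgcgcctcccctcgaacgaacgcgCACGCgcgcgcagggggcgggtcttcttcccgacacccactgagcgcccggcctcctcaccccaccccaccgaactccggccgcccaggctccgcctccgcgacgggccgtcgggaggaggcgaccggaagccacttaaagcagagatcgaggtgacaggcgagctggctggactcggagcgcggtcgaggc
The first BCL6 promoter held the BCL6 motif at bases 287 to 295, counted from its 5′ end, and 0.373% of the 35116 RefSeq promoters held that motif. It also held 1 N box. The second held the PR hexamer as AGAACA at bases 281 to 286, a match found in 14.8% of promoters, and 3 N boxes. HES1 had GTGGGAA at bases 166 to 172 (6.25% of promoters), 4 N boxes (38.0% of promoters had at least 1) and 2 copies of the AHR core. The first TIPARP promoter also had 2 copies of the AHR core, which 36.5% of promoters held at least once. RefSeq lists 2 further TIPARP starts, not printed, with 0 AHR cores and with 1 N box at the third start. The hexamer as a full inverted repeat with any 3 bases between its arms was in 1 promoter of all 35116 and in none of these 4. These matches are letters in a 300-base stretch and not measured binding.

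Few PR sites were listed in the windows without hormone, and in each window the 5 min list already held more sites than the 60 min list. At 0, 5, 30, 60 and 360 min the BCL6 window held 3, 14, 15, 13 and 13 sites. The HES1 window held 1, 11, 11, 10 and 7 sites at those times. The TIPARP window held 0, 6, 5, 4 and 3 sites. In each window the 0 min list was the shortest, and at HES1 and TIPARP the 360 min list was the shortest of the 4 with hormone. In the 3 windows together the lists held 4, 31, 31, 27 and 23 sites, against 844, 22973, 25872, 24436 and 23841 over the genome. Distal 3q outside the windows held 180, 1174, 966, 832 and 821. There too the 5 min list held more sites than the 60 min list, and the 360 min list was the shortest with hormone. The course over time was thus not particular to the windows.

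The BCL6 and HES1 windows were dense in PR sites also against the rest of distal 3q, and the TIPARP window less so. At 60 min there were 61.6 sites per Mb at BCL6, 97.1 at HES1 and 29.9 at TIPARP. Distal 3q outside the windows had 17.5 sites per Mb and the genome 8.05. Thus BCL6 had 3.52 times, HES1 5.54 times and TIPARP 1.70 times the density of the surrounding arm. Distal 3q itself stood apart at 0 min, with 184 of the 844 sites (21.8%) on 1.58% of the listed genome length, and it held 3.52% of the 60 min list. The 4 unstimulated sites of the windows lie in a region rich in such sites: 3.84 per Mb on distal 3q, and 0.26 per Mb on chromosome 3 below 150 Mb. When distal 3q was tiled at the length of each window, a tile held a median of 3 and at most 21 sites of the 60 min list at the BCL6 length. The median was 1 and the highest 16 at the HES1 length, and 1 and 17 at the TIPARP length. As many sites as in the window, or more, lay in 9 of 227 tiles at the BCL6 length, 9 of 465 at the HES1 length and 88 of 357 at the TIPARP length. These counts are a description and not a test. The windows were chosen by their PR sites, and the tiles also run over the windows.

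**Figure D1:**
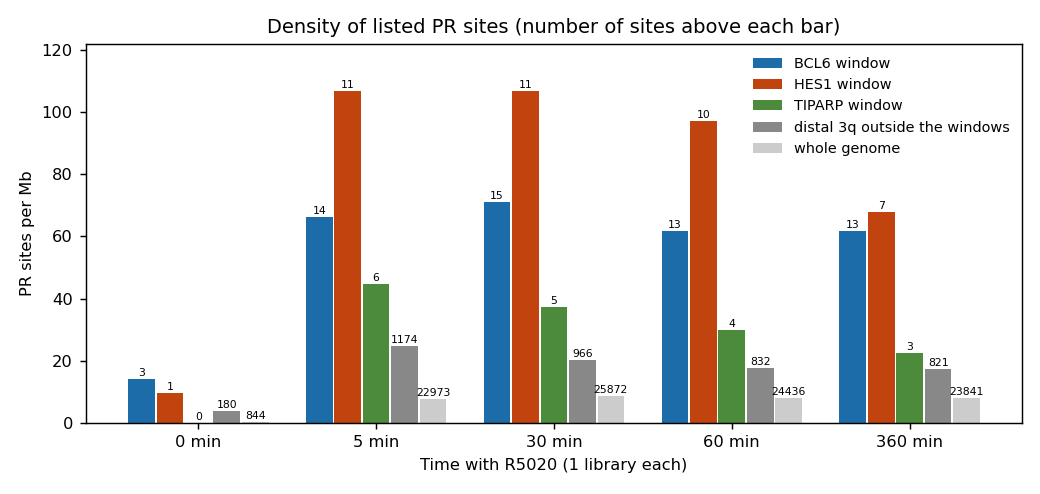
PR sites per Mb in the BCL6, HES1 and TIPARP windows, on distal 3q outside them, and in the genome, at each time of R5020 (1 library per time; the number of sites stands above each bar). At 60 min the windows lie at 61.6, 97.1 and 29.9 sites per Mb, above distal 3q (17.5) and the genome (8.05).

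The 45 merged sites were next classed by the lists that hold them. Of them, 13 were listed at all 4 hormone times and not at 0 min, 13 at 2 or 3 hormone times, and 15 at a single hormone time. For these 3 classes the shares over all merged sites were 22.8%, 33.7% and 41.5%, and over distal 3q 19.8%, 24.7% and 46.3%. The 13 sites listed at all 4 hormone times alone made up 28.9% of the 45 (exact 95% interval 16.4 to 44.3), near both backgrounds. Another 2 sites were listed at 0 min and later, a class that held 0.24% of merged sites in the genome and 0.7% on distal 3q, and 2 more at 0 min alone (1.68% and 8.5%). Merged sites with all 4 hormone times, including the 2 also listed at 0 min, had a median width of 397 bp (265 to 713) in the windows, and sites listed at a single hormone time 250 bp (171 to 392). Part of this is built in, since merging more lists can only widen a site. The same order held over all merged sites of the genome, at 404 and 237 bp.

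Sites of the 60 min list were mostly shared with the neighbouring times. Of the 13 BCL6 sites at 60 min, 9 overlapped a 5 min site, 12 a 30 min site and 9 a 360 min site. For HES1 these counts were 7, 8 and 7 of 10, and for TIPARP 4, 3 and 2 of 4. Over the genome 53.7%, 77.6% and 70.6% of the 60 min sites were shared with 5, 30 and 360 min, and on distal 3q 62.0%, 80.9% and 71.2%. The windows thus followed the order of the genome at BCL6 and HES1 in having 30 min as the nearest list, while at TIPARP all 4 sites were shared with 5 min.

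**Figure D2:**
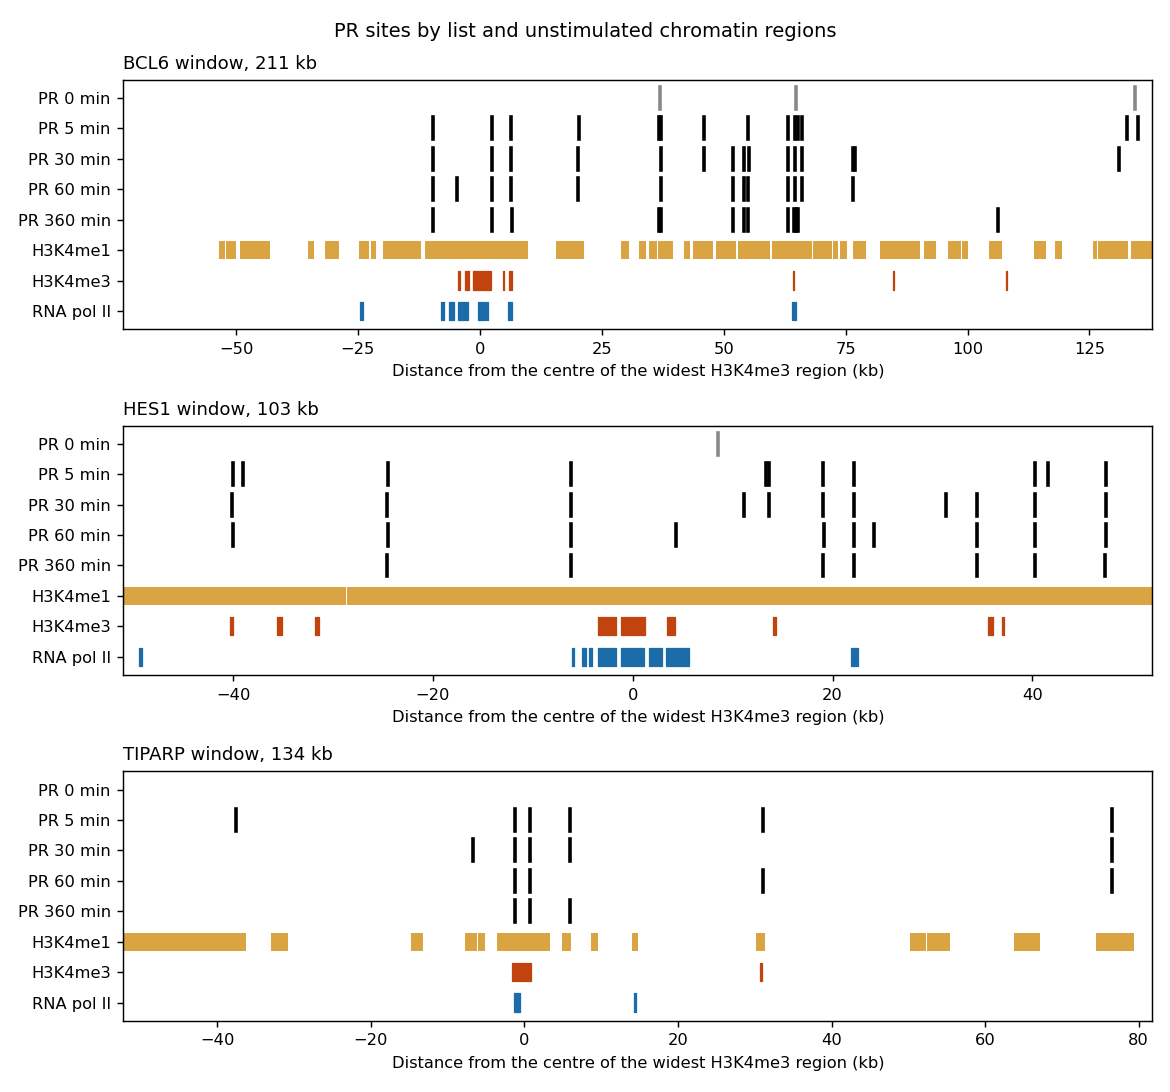
PR sites of each list and H3K4me1, H3K4me3 and RNA polymerase II regions of unstimulated cells in the BCL6, HES1 and TIPARP windows, drawn by distance in kb from the centre of the widest H3K4me3 region of each window. Ticks at nearly the same place in every row from 5 to 360 min are the sites listed at all 4 hormone times: 7 at BCL6, 6 at HES1 and 2 at TIPARP, of which 2 at BCL6 were also listed at 0 min.

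In the BCL6 window, PR sites lay in a chain of 144.8 kb, from 187452342 to 187597120, and the first 63.3 kb of the window held none. Of its 21 merged sites, 7 were listed at all 4 hormone times (33.3%, against 23.0% in the genome and 20.3% on distal 3q). The leftmost of these, 187452342 to 187452715, was 267, 355, 366 and 322 bp wide at 5, 30, 60 and 360 min. The next, 187464482 to 187464747, was 250, 265, 248 and 240 bp wide and lay 169 bp from the nearest H3K4me3 region. The site at 187468212 to 187468791, was 555, 502, 577 and 351 bp wide and overlapped regions of all 3 chromatin lists. All 3 sites lie by the main block of active marks of the window, whose widest H3K4me3 region ran over 1851 bp from 187461161 to 187463012. An H3K4me1 region of 19235 bp, from 187452737 to 187471972, spanned that block and held 9 H3K4me3 and 10 RNA polymerase II regions.

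The other BCL6 sites with all 4 hormone times lay farther to the right, beyond the H3K4me3 regions of that block. The pair 187516925 to 187517413 and 187525113 to 187525491 had widths of 454, 481, 430 and 420 bp and of 349, 276, 378 and 322 bp at the 4 times. The widest was 187526432 to 187527145, which was 676, 672 and 701 bp wide at 5, 30 and 60 min and was listed at 360 min as 2 sites of 114 and 444 bp. It was also listed at 0 min, as a site of 246 bp that lay wholly inside the 60 min site, and it overlapped all 3 chromatin marks in unstimulated cells. It was the only BCL6 site outside the main block to do so. An H3K4me1 region of 8276 bp around it, from 187522002 to 187530278, held 4 merged PR sites.

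The second BCL6 site listed both before and after hormone, 187498766 to 187499395, was a looser match. Its 0 min site of 176 bp overlapped the 286 bp site of 60 min by 14 bp, and the 5 and 360 min lists each gave 2 sites there. The last 0 min site, of 238 bp at 187596314 to 187596552, overlapped no later site. The 30, 60 and 360 min lists, and not the 5 min list, held the sites 187513746 to 187514154 and 187515994 to 187516373. The remaining 11 merged sites of the window were 178 to 666 bp wide, and 6 of these were listed at a single hormone time. The largest gap between PR sites, 29.0 kb from 187539183 to 187568174, separated the 5 rightmost merged sites, each listed at a single time, from the rest.

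In the HES1 window, PR sites were spread over 87.9 kb on both sides of a central block of H3K4me3 and RNA polymerase II. The widest H3K4me3 region of the block ran over 2383 bp from 193853787 to 193856170. Nearly the whole window carried H3K4me1: 5 regions covered 99.8% of it, and the widest was 64936 bp. The 6 sites with all 4 hormone times were all outside the H3K4me3 regions of the block. Nearest to it on the left was 193848600 to 193848953, with widths of 278, 334, 341 and 315 bp at 5, 30, 60 and 360 min, which overlapped an RNA polymerase II region by 95 bp. On the right came 193873841 to 193874278, of 300, 275, 356 and 254 bp, and 193876921 to 193877318, of 356, 305, 365 and 306 bp, which also overlapped RNA polymerase II.

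The outer HES1 sites were listed at the same times with widths that varied more at some of them. The site 193830188 to 193830600 was 200, 339, 250 and 191 bp wide at the 4 hormone times, and its 60 min site overlapped the 360 min site by only 85 bp. Toward the right end, 193895067 to 193895446 was 379, 259, 286 and 205 bp wide, and 193902082 to 193902621 was 498, 389, 398 and 425 bp wide. The site 193889276 to 193889636 was listed at 30, 60 and 360 min. In the central block itself a single PR site was listed, 193859207 to 193859381, at 60 min alone and 11 bp from an H3K4me3 region. The only 0 min site of the window, 203 bp at 193863398 to 193863601, overlapped no site with hormone. The other 8 merged sites were 171 to 402 bp wide.

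TIPARP had the sparsest window, with 7 merged sites over 114.3 kb and none at 0 min. Its 2 sites with all 4 hormone times lay 1560 bp apart within an H3K4me1 region from 156389663 to 156396527, and each lay wholly inside an H3K4me3 region. The first, 156391832 to 156392194, was 318, 312, 362 and 297 bp wide at 5, 30, 60 and 360 min. It lay in an H3K4me3 region from 156391553 to 156392229 and in an RNA polymerase II region from 156391807 to 156392257. The second, 156393754 to 156394037, was 250, 265, 217 and 254 bp wide and lay in the widest H3K4me3 region, of 1741 bp. This PR site overlapped no RNA polymerase II region, although the H3K4me3 region did so at its other end. At HES1, by contrast, none of the sites with all 4 hormone times overlapped H3K4me3. Of the others, 156398963 to 156399295 was listed at 5, 30 and 360 min, 156424094 to 156424407 at 5 and 60 min, and 156469623 to 156469896 at 5, 30 and 60 min. The last 2 sites were listed at 5 min or at 30 min alone.

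Every PR site in the windows overlapped an H3K4me1 region of unstimulated cells. This held for all 45 merged sites, against 42.1% of merged sites in the genome and 70.7% on distal 3q. It held for 27 of 27 sites of the 60 min list (exact 95% interval 87.2 to 100%), against 48.2% in the genome and 81.1% on distal 3q. By window the interval was 75.3 to 100% at BCL6 (13 sites), 69.2 to 100% at HES1 (10) and 39.8 to 100% at TIPARP (4). Each of these holds the distal 3q share. These intervals cover counting error only. The count has to be read beside the H3K4me1 coverage of the windows: 59.2% of the BCL6 window, 99.8% of HES1 and 34.7% of TIPARP, with 34.7% on distal 3q and 7.64% over the genome. At HES1 almost any site would overlap H3K4me1, while the BCL6 and TIPARP windows left room for sites outside it.

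H3K4me3 and RNA polymerase II met few of the PR sites. Of the 60 min sites 5 of 27 overlapped H3K4me3 (18.5%, exact 95% interval 6.30 to 38.1), 2 at BCL6, 1 at HES1 and 2 at TIPARP, against 5.12% in the genome and 8.15% on distal 3q. RNA polymerase II was met by 6 of 27 (22.2%, 8.62 to 42.3), 2 at BCL6, 3 at HES1 and 1 at TIPARP, against 8.92% and 10.8%. These counts too have to be read beside coverage. H3K4me3 regions covered 3.48% of the 3 windows, 1.10% of distal 3q and 0.549% of the genome. RNA polymerase II regions covered 4.05%, 1.18% and 0.641%. The windows were chosen partly by these regions, the intervals cover counting error only, and enrichment of PR sites in either mark was not tested. Over all merged sites, 6 of 45 overlapped H3K4me3, against 4.1% in the genome and 6.2% on distal 3q, and 6 of 45 RNA polymerase II, against 6.99% and 7.55%. Of the 6 in H3K4me3, 156424094 to 156424407 at TIPARP, overlapped it by only 9 bp, through its 5 min site. Counted within 1 kb of an H3K4me3 region, the shares of the 60 min sites were larger, at 38.5% at BCL6, 30% at HES1 and 75% at TIPARP. Shares at that distance were not counted for the genome or distal 3q, and the backgrounds above are for overlap. By overlap of 1 bp or more, 19 of 27 sites at 60 min overlapped H3K4me1 alone (70.4%), against 38.9% in the genome and 66.7% on distal 3q. All 3 lists were overlapped by 3 of 27 (11.1%, exact 95% interval 2.35 to 29.2), against 2.80% and 4.31%. These 3 were 187468212 to 187468789 and 187526432 to 187527133 at BCL6, and 156391832 to 156392194 at TIPARP.

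MNase reads at the 60 min sites mostly fell with R5020. The ratio of unstimulated to R5020 reads in the authors' deposited table was above 1 at 22 of 26 window sites with a ratio, against 78% of sites in the genome and 67.7% on distal 3q. It was above 2 at 2 of 26, against 13% and 3.96%. These backgrounds mix chromatin classes: 50.4% of the genome sites overlapped none of the 3 chromatin lists, and no window site did so. Among sites with H3K4me1 alone, the ratio was above 1 at 15 of 19 in the windows (78.9%). That was below the 87.1% of such sites in the genome and above the 69.6% on distal 3q. The median ratio in the authors' deposited table was 1.33 at BCL6 (13 sites), 1.56 at HES1 (9 sites) and 1.05 at TIPARP (4 sites), and 1.15 on distal 3q and 1.29 in the genome. A ratio above 1 means fewer reads after hormone. How many MNase libraries stand behind each condition is not stated, and the values carry no spread.

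The 2 ratios above 2 belonged to sites in all 3 chromatin marks. At the TIPARP site 156391832 to 156392194 the authors' deposited table gave 438 reads without hormone and 114 with it, a ratio of 3.84. At the BCL6 site 187526432 to 187527133 the authors' deposited table gave 326 and 129 reads, a ratio of 2.53. The third such site, 187468212 to 187468789 at BCL6, had 408 and 212 reads in the authors' deposited table, a ratio of 1.92. Sites in all 3 marks had high ratios elsewhere too. In the authors' deposited table their median was 1.895 over 34 sites on distal 3q outside the windows (upper quartile 2.61, highest 9.8). Over the genome, windows included, it was 2.23 (upper quartile 3.075). The ratios of 1.92 and 2.53 lay below both upper quartiles, and 3.84 lay above both. At the 19 sites with H3K4me1 alone, the median ratio in the authors' deposited table was 1.32, against 1.16 on distal 3q and 1.42 in the genome.

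At BCL6, 11 of 13 sites (84.6%) had fewer reads after R5020, against 78% of sites in the genome and 67.7% on distal 3q. With H3K4me1 alone it was 9 of 11 (81.8%), against 87.1% and 69.6% of such sites. The lowest ratios in the authors' deposited table were 0.68 at 187538422 to 187538830 (126 and 185 reads), 0.78 at 187452342 to 187452708 (133 and 171 reads) and 1.02 at 187464497 to 187464745 (43 and 42 reads). The third highest ratio in the authors' deposited table was 1.49, at 187482137 to 187482371 (113 and 76 reads). Right of the block, 3 of the sites with all 4 hormone times had near-equal ratios: the authors' deposited table gave 180 and 134 reads at 187499079, 216 and 164 at 187516928, and 268 and 202 at 187525113, by start position. Those 3 ratios in the authors' deposited table were 1.34, 1.32 and 1.33. The site beside them, 187526432, had 2.53 in the authors' deposited table, so neighbours listed at the same 4 hormone times differed in ratio. The other 4 sites had 1.04 to 1.37 in the authors' deposited table.

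HES1 sites had the highest median of the 3 windows. In the authors' deposited table the highest values were 492 and 273 reads at 193876953 to 193877318, a ratio of 1.8, and 481 and 400 at 193889295 to 193889636, a ratio of 1.2. The other high ratios in the authors' deposited table were 1.76 at 193878937 to 193879329 (259 and 147 reads) and 1.75 at 193848600 to 193848941 (250 and 143 reads). The only ratio below 1 was 0.95 in the authors' deposited table, at 193895072 to 193895358 (190 and 200 reads). The site in the central block, 193859207 to 193859381, stood apart with 10 and 0 reads in the authors' deposited table. With 0 reads after R5020 it has no ratio. The site 193814726 to 193815128, the only one in H3K4me3, had 298 and 184 reads in the authors' deposited table, a ratio of 1.62. Of the other sites with all 4 hormone times, those starting at 193830350, 193873922 and 193902117 had ratios of 1.56, 1.51 and 1.39 in the authors' deposited table. Thus 8 of 9 ratios at HES1 (88.9%) lay above 1, against 78% in the genome and 67.7% on distal 3q. With H3K4me1 alone it was 5 of 6 (83.3%), against 87.1% and 69.6% of such sites.

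At TIPARP the 4 sites split. Beside the ratio of 3.84, the second site with all 4 hormone times had 97 and 94 reads in the authors' deposited table, a ratio of 1.03, although it lay 1560 bp away in the same H3K4me1 region. The outer sites had 108 and 101 reads (1.07) at 156424177 to 156424407 and 63 and 73 reads (0.86) at 156469626 to 156469835 in the authors' deposited table. A ratio above 1.07 was thus found at a single TIPARP site. The ratio of reads summed over the 4 sites in the authors' deposited table was 1.85, against the median of 1.05.

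**Figure D3:**
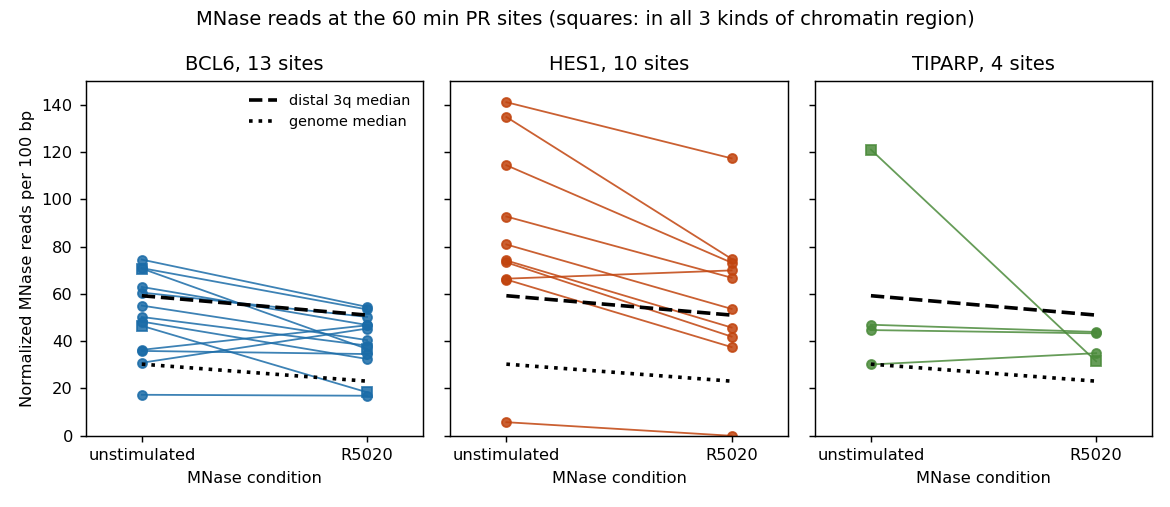
Normalized MNase reads per 100 bp at the 60 min PR sites of the BCL6, HES1 and TIPARP windows, without hormone and after R5020, from the authors' deposited table (squares are sites in H3K4me1, H3K4me3 and RNA polymerase II regions; dashed and dotted lines are the medians of distal 3q and the genome). Ratios run from 0.68 at BCL6 to 3.84 at the TIPARP site in all 3 marks.

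Read levels in the windows were close to those of the chromosome around them. Per 100 bp of site, the median without hormone in the authors' deposited table was 50.2 reads at BCL6, 77.5 at HES1 and 45.8 at TIPARP. Distal 3q as a whole had 59.2, chromosome 3 below 150 Mb 30.3 and the genome 30.3 in the authors' deposited table, while the medians of the other chromosomes ran from 16.4 to 39.6. The rest of the 5 Mb bin around each window gave 52.7 for BCL6, 77.6 for HES1 and 49.4 for TIPARP in the authors' deposited table. After R5020 the windows had 40.4, 60.2 and 39.1 by the same measure in the authors' deposited table and the rest of their bins 43.3, 63.6 and 42.1. The order HES1, BCL6, TIPARP was the same in the windows and in the bins around them. PR sites were denser in each window than in the rest of its bin, with 21.1, 22.9 and 16.2 sites per Mb at 60 min in those bins.

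The same bins placed the H3K4me1 overlap. Outside the windows, 86 of 101 60 min sites (85.1%) overlapped H3K4me1 in the bin of BCL6, 98 of 112 (87.5%) in that of HES1 and 45 of 79 (57.0%) in that of TIPARP. H3K4me1 covered 44.2%, 52.0% and 16.9% of these bins. All 10 bins beyond 150 Mb had median read densities of 34.4 to 77.6 without hormone in the authors' deposited table, and the 30 bins below it 18.3 to 42.7. They held 30.4 to 167.2 H3K4me1 regions per Mb, against 3.4 to 61 below. MNase reads, H3K4me1 regions and unstimulated PR sites were thus all more abundant beyond 150 Mb, though the ranges of the bins overlap. The part of that regional level in the sites listed in the windows was not tested.

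**Figure D4:**
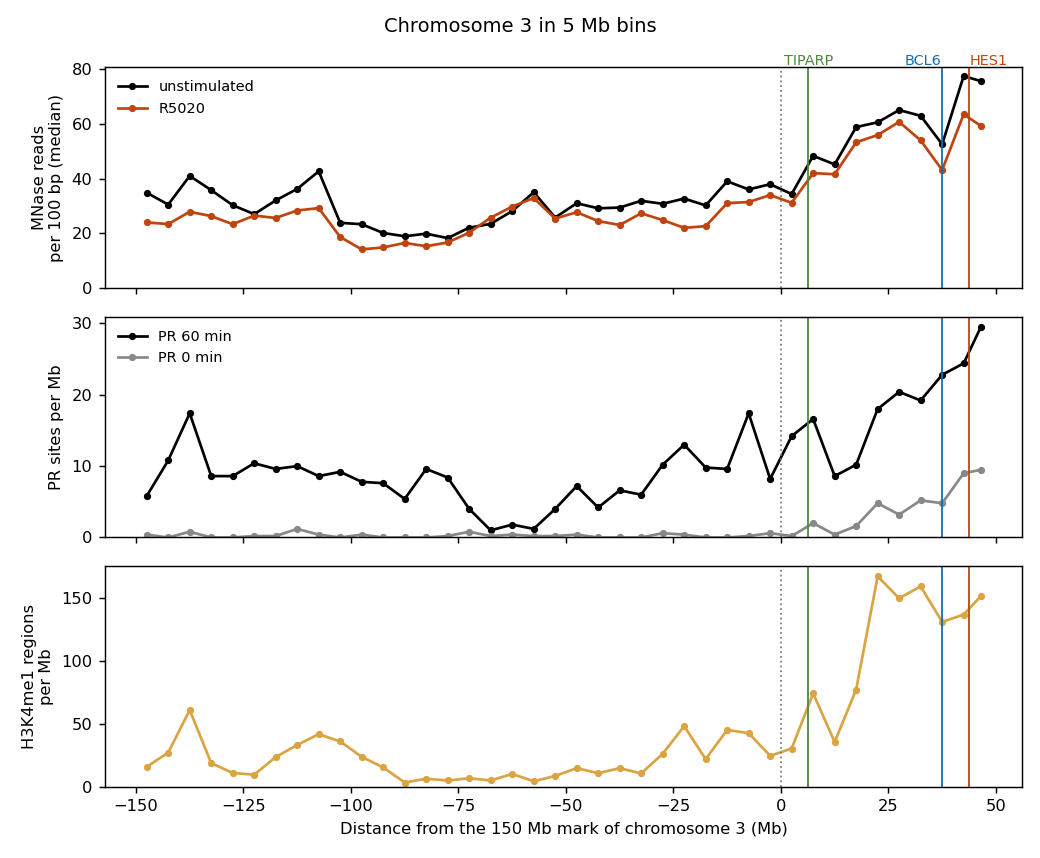
Chromosome 3 in 5 Mb bins, by distance in Mb from its 150 Mb mark (dotted): median MNase reads per 100 bp of the 60 min PR sites from the authors' deposited table (top), PR sites per Mb at 0 and 60 min (middle) and H3K4me1 regions per Mb (bottom), with coloured lines at TIPARP, BCL6 and HES1. In the top panel the 10 bins beyond 150 Mb lie at 34.4 to 77.6 without hormone, and the 30 bins below at 18.3 to 42.7.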

How the data were processed

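ChIP-seq lists of PR, H3K4me1, H3K4me3 and RNA polymerase II were deposited as regions, 1 list per sample, on hg19 per the submitters' processing notes. For the aligner, peak caller, input and read depth the sources used here give nothing. A table deposited by the authors gives, per the file headers, normalized MNase reads for each 60 min site. These whole numbers were normalized by the authors in a way no source used here states, and were handled as a score, not as raw reads. The ratio in it was made by the authors and equals unstimulated over R5020 reads within 0.005 at all 24433 sites that have one. All 24436 of its sites are in the 60 min list. The MNase libraries are not among the 8 samples.

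Sites overlapping by at least 1 bp were called shared, and the 5 PR lists were merged. Chromosome lengths are the last base listed in any file. Read density is reads per 100 bp of site, as the median over sites. Intervals are exact (Clopper-Pearson) at 95%. Overlap counting was tested on simulated lists. The named sites were those listed at 0 min and later or at all 4 hormone times, and the 3 highest and 3 lowest MNase ratios per window. The other sites given by position were chosen after their values were seen. Members and lists were chosen with earlier results of these data known. Motifs within the hg19 sites, distances to start sites and pathway lists were not analysed here, since no genome or annotation of that build was used. RefSeq promoters are on GRCh38.p14, and all 3 genes matched by symbol. Python 3.11.15, NumPy 2.4.6, pandas 2.3.3, SciPy 1.17.1 and Matplotlib 3.10.9 were used.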

Additional observations from a re-analysis of the deposited data

How the results depend on the processing

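A count, density or ratio was taken as moved when it changed by more than 1.5 times, and a share when it left the exact 95% interval of its main value, which is wide for so few sites. By that measure 28 of 174 alternatives to 48 values moved the value and 146 did not. Of the 28, 11 came from keeping the wider 50% of each list, 8 from widening the windows and 4 from narrowing them. Such settings drop sites or change the window length, so a moved count there is partly built in. The tally is thus a weak measure of how stable the values are. Divided by the distal 3q median, the TIPARP median ratio of 1.05 became 0.913, on the other side of 1. Keeping the wider 50% of each list gave 8, 8, 8 and 6 PR sites at BCL6 (5, 30, 60 and 360 min), 0, 6, 6 and 4 at HES1 (0, 5, 30 and 360 min) and 2, 1 and 1 at TIPARP (30, 60 and 360 min). Widening the windows by 50 kb on each side gave 2, 17, 19, 18 and 12 sites at HES1 (0 to 360 min) and 8, 7 and 8 at TIPARP (30, 60 and 360 min). Narrowing by 20 kb gave 6, 7, 6 and 4 at HES1 (5 to 360 min). With the wider 50% of the chromatin regions, the share of 60 min sites in H3K4me3 was 0% at BCL6 and at HES1, and that in RNA polymerase II was 0% at TIPARP. Counting sites within 1 kb of a region put 46.2% of the BCL6 sites near RNA polymerase II, and took the H3K4me3 shares from 15.4% to 38.5% at BCL6, 10% to 30% at HES1 and 50% to 75% at TIPARP, inside their intervals. Shares within 1 kb were not counted for the genome or distal 3q. By midpoint the BCL6 H3K4me3 share was 7.69%. The TIPARP ratio from summed reads was 1.85 in the authors' deposited table, against a median of 1.05, and 1 site made the difference.

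No paired analysis was possible because each group is 1 library and no comparison has a test. Read depth, peak heights and thresholds are unknown, so the lists bound what is called a site and do not rank sites. Merging sites within 500 bp left 17 merged sites at BCL6 in place of 21, with 3 in place of 2 listed at 0 min and later. Leaving out the 5 or the 360 min list gave 9 BCL6 sites at every remaining hormone time in place of 7, and leaving out 60 or 360 min gave 3 at TIPARP in place of 2. With a reciprocal overlap of 50%, 5 in place of 6 HES1 sites of the 60 min list were shared with the other 3 hormone times.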
